A study of Homo sapiens with 16 samples.

Results

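Conventional G4-ChIP on HEK293T cells was set against both control antibody capture (AbC) G4-ChIP samples that were read on a MinION nanopore sequencer, CTut and CTtr. The 1455 G4-ChIP peaks, 3496 CTut peaks and 2367 CTtr peaks were joined wherever peaks shared at least 1 bp. This gave 4325 merged regions, of 23547 when all 9 peak lists of the series are merged the same way. The regions described here are the 668 found in G4-ChIP only, the 1004 found in both AbC lists and not in G4-ChIP, and the 525 found in all 3 lists, 2197 in all. The other merged regions were 1648 in CTut only, 404 in CTtr only, 29 in G4-ChIP and CTut, and 47 in G4-ChIP and CTtr.

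HEK293T is a human embryonic kidney line that carries the SV40 large T antigen. All 3 samples were precipitated with 1H6, an antibody against G-quadruplexes, and each peak was called against an input of its own. In G4-ChIP, chromatin was fixed and sonicated first and the antibody met it in solution. In AbC G4-ChIP, fixed and permeabilised cells were bathed in the antibody and fixed again, and no antibody was added after shearing. CTut and CTtr came from cells with a stable non-targeting shRNA, the control for a knockdown (KD) of the DNA-binding protein CGGBP1, while the labels of G4-ChIP name HEK293T and no shRNA. For CTut, the antibody was crosslinked beforehand to a quadruplex-forming control plasmid and a carrier plasmid, 500 ng of each in 150 mM KCl, and the complexes were added to the lysate. For CTtr, the cells had taken up 1.25 µg of each plasmid per dish by calcium phosphate transfection and were harvested 12 h later. The antibody step, the shRNA, the plasmids and the peak settings all set G4-ChIP apart from CTut and CTtr, and their parts in a difference cannot be told apart. Each list stands for 1 library, so no difference between lists has a replicate check, and the intervals below are at the 95% level and cover counting error only. The read depth behind the peaks is unknown from the lists.

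G-quadruplexes (G4s) are DNA or RNA structures in which guanines from separate runs pair into stacked planar tetrads, held by potassium. The textbook sequence has at least 4 runs of GGG with short loops between them, read as CCC on the opposite strand. G4s are best known from telomeres, ribosomal DNA, immunoglobulin switch regions and the promoters of growth genes, and the same runs of G are frequent in GC-rich repeats. Satellites, the long arrays of tandem copies at centromeres and next to them, are in the main poor in such runs. Alpha satellite is built from copies of one unit longer than a nucleosome core, and human satellites 2 and 3 are built from diverged copies of ATTCC.

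Of the 5 regions with the highest fold over input in each class, 1 region in all held that textbook signature, the both AbC region of rank 5. The deposited fold was used to rank them (the lower of both folds for regions in both AbC lists, the lowest of the 3 for regions in all 3 lists), and the middle of a few is printed from the plus strand of hg38 to show the kinds of sequence each class holds. Capitals mark runs of at least 3 G or 3 C, except in the regions of ranks named as ATTCC satellites, where they mark ATTCC and its complement GGAAT. Windows that overlap an annotated untranslated region are not shown.
G4-ChIP only, rank 1, ATTCC satellite, chr5:49666730-49666969: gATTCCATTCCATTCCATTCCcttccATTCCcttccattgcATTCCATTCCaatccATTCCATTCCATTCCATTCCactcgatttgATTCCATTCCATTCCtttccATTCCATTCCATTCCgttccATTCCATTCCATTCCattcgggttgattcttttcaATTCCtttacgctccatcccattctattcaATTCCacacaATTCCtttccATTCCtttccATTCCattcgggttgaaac
G4-ChIP only, rank 5, chr13:72148223-72148462: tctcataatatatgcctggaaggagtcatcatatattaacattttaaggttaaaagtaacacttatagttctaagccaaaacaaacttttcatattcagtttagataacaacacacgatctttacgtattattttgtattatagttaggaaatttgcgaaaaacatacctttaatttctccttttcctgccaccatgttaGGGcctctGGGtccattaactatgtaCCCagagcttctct
both AbC, rank 2, chr6:58928057-58928296: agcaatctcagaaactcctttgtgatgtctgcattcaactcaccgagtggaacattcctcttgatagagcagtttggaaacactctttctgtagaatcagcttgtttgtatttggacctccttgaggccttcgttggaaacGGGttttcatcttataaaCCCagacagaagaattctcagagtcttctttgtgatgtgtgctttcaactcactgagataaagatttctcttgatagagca
both AbC, rank 5, chr21:8809433-8809672: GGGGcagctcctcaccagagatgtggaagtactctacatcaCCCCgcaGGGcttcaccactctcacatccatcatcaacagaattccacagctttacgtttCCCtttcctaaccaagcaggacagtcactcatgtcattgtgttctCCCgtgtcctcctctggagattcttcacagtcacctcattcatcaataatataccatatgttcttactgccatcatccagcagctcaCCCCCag
all 3, rank 1, ATTCC satellite, chr16:46391314-46391553: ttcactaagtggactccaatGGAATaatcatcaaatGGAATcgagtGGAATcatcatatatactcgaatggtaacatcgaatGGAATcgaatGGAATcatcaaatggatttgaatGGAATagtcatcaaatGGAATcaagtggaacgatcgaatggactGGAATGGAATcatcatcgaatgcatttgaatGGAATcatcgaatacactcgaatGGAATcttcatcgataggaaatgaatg
all 3, rank 5, chr4:51712081-51712320: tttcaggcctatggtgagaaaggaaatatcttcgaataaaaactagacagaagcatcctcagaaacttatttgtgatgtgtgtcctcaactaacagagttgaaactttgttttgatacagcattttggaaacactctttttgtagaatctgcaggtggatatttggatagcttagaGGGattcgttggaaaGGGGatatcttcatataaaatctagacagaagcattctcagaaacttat
all 3, longest region, chr13:62076940-62077179: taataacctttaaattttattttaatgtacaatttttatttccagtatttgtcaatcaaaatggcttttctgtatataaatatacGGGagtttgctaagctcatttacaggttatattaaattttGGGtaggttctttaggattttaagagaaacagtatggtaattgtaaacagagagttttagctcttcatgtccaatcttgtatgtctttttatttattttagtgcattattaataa

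The canonical signature was present in fewer regions, and its form differed from place to place. In the next windows the capitals mark matches to 4 or more runs of GGG (or of CCC) with loops of 1 to 7 bases. In the TEX19 window, further runs in lower case extend a marked match. Each lies near the start of an annotated transcript of a gene that the ranking by fold picked out. The G4-ChIP only window lies at COL4A5, a type IV collagen chain of basement membranes. The both AbC window lies at TEX19, a gene of the germ line, in a minisatellite in which the signature comes again and again. The all 3 window lies at DUX4, the homeobox gene of the D4Z4 macrosatellite.
COL4A5, chrX:108584763-108585002: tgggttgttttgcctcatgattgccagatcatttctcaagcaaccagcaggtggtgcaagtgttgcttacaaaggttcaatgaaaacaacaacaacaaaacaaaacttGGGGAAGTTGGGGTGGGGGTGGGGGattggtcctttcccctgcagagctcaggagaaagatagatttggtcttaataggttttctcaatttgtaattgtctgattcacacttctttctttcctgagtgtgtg
TEX19, chr17:82359459-82359596: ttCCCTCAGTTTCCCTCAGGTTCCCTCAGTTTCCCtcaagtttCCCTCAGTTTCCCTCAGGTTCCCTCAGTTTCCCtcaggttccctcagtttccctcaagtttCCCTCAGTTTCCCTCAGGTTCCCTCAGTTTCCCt
DUX4, chr4:190175289-190175528: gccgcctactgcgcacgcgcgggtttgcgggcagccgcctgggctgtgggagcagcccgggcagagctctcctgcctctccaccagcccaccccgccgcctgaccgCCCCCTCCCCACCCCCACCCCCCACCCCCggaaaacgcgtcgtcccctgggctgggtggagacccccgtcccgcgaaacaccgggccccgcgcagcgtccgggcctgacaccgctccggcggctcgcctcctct

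Of the 1455 G4-ChIP peaks, 787 (54.1%, interval 51.5 to 56.7%) overlapped a peak of CTut or CTtr and 619 (42.5%) overlapped both. Seen from the other side, 648 of 3496 CTut peaks (18.5%, 17.3 to 19.9%) and 692 of 2367 CTtr peaks (29.2%, 27.4 to 31.1%) overlapped a G4-ChIP peak. The AbC lists overlapped each other more: 1802 CTut peaks (51.5%) met a CTtr peak, and 1892 CTtr peaks (79.9%) met a CTut peak. In bases, the shared length over the joint length (Jaccard index) was 0.127 for G4-ChIP and CTut, 0.197 for G4-ChIP and CTtr, and 0.396 for CTut and CTtr. The all 3 class held most of the sequence, 6994109 bp against 4218943 bp in both AbC and 997790 bp in G4-ChIP only.

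The classes differed in length. The median was 1232 bp in G4-ChIP only (interval 1138 to 1360 bp), 2659 bp in both AbC (2425 to 2825 bp) and 8666 bp in all 3 (7404 to 9575 bp). The gap between the first 2 rested on asking for both AbC lists. With CTut alone as the AbC list the medians were 1258 and 1736 bp. With CTtr alone they were 1233 and 1312 bp, and the interval of their difference (-235 to 111 bp) includes 0. Every G4-ChIP only region was a single peak, the shortest 308 bp and the longest 7110 bp. Regions in all 3 lists joined up to 11 G4-ChIP, 10 CTut and 8 CTtr peaks. The AbC peaks were called with a wider bandwidth than the G4-ChIP peaks and with the local background switched off, whereas the G4-ChIP options other than bandwidth are not stated, and the part of these settings in the lengths was not tested. Longer regions also had more room to meet a peak of any list.

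G4-ChIP only peaks lay at the bottom of their own list. The lowest fold of the G4-ChIP list was 4.45, and 353 of the 668 G4-ChIP only peaks had exactly that value (52.8%, interval 49.0 to 56.7%), against 146 of the 709 G4-ChIP peaks inside all 3 regions (20.6%, 17.7 to 23.8%). A -log10 q of at least 4 was reached by 51 of the former (7.63%) and 183 of the latter (25.8%). The median fold was 4.45 and 4.77. The highest G4-ChIP fold was 9.88 in G4-ChIP only and 41.1 in all 3. The lowest fold was lower in the AbC lists, 3.08 in CTut and 3.21 in CTtr, so folds are compared within a list and not between lists.

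**Figure D1:**
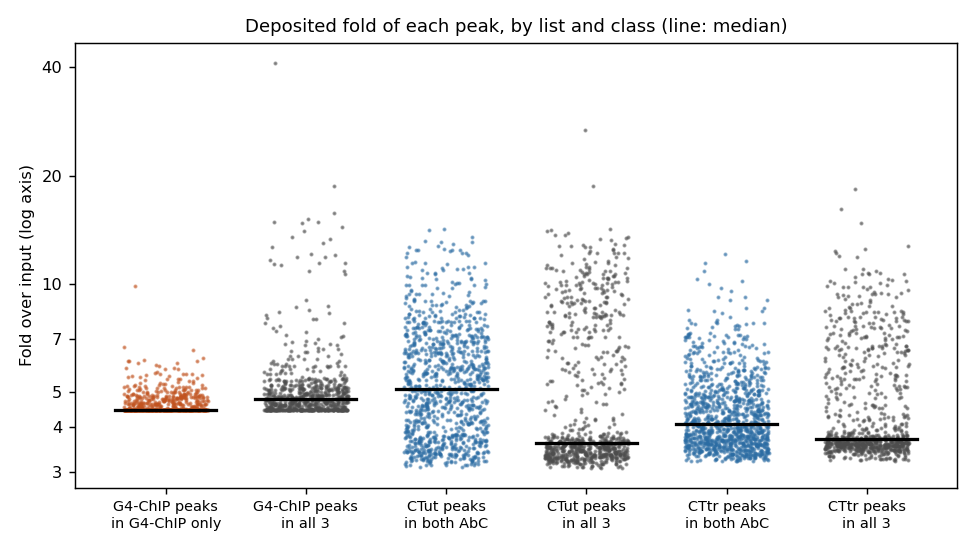
Deposited fold over input of each peak (vertical log axis, no unit) for G4-ChIP peaks in G4-ChIP only and all 3 regions, and CTut and CTtr peaks in both AbC and all 3 regions; 1 point is 1 peak and the line is the median. The G4-ChIP only peaks crowd at 4.45, and the CTut peaks of all 3 regions fall into a dense low band and a spread high band.

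Peaks shared by the AbC lists outside G4-ChIP stood higher than those of CTut or CTtr alone. The median CTut fold was 5.10 (4.95 to 5.32) over the 1034 CTut peaks of both AbC and 3.81 (3.77 to 3.87) over the 1648 peaks in CTut only. The median CTtr fold was 4.08 (4.02 to 4.16) over 1106 peaks and 3.42 (3.38 to 3.44) over the 404 peaks in CTtr only. The peaks shared with G4-ChIP as well did not follow this in CTut: over the 785 CTut peaks of all 3 regions the median was 3.61 (3.57 to 3.66), below that of CTut only. Over the 809 CTtr peaks of all 3 regions it was 3.70 (3.67 to 3.74), between both AbC and CTtr only. Across the 1004 both AbC regions the CTut and CTtr folds had a Spearman rho of 0.728. Across the 525 all 3 regions rho was 0.827 between CTut and CTtr, 0.461 between G4-ChIP and CTut and 0.501 between G4-ChIP and CTtr. These are descriptions over regions of the same libraries, and neighbouring regions are not independent.

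Chromosome 13 held 213 of the G4-ChIP only regions (31.9%, interval 28.4 to 35.6%), 112 of both AbC (11.2%, 9.27 to 13.3%) and 251 of all 3 (47.8%, 43.5 to 52.2%). Among regions in which at most 50% of the 31-base words of the central 1000 bp occur again in hg38, the order of the first 2 classes turned, with 32.7% in G4-ChIP only and 47.1% in both AbC. With CTtr alone as the AbC list, the G4-ChIP regions without a CTtr peak had 34.8% on this chromosome and the CTtr regions without a G4-ChIP peak 25.4%. Chromosome 13 has 3.37% of the known hg38 bases of the 23 chromosomes used. Chromosome 1, with 7.92% of the bases, held 164 G4-ChIP only regions (24.6%, 21.3 to 28.0%), 86 of both AbC (8.57%) and 34 of all 3 (6.48%). Chromosome 6 held 50 and chromosome 18 held 30 of the G4-ChIP only regions, while chromosomes 17 and 19 held 0, although both AbC had 37 and 48 there. With 668 regions, a count of 0 covers a share of up to 0.551%.

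**Figure D2:**
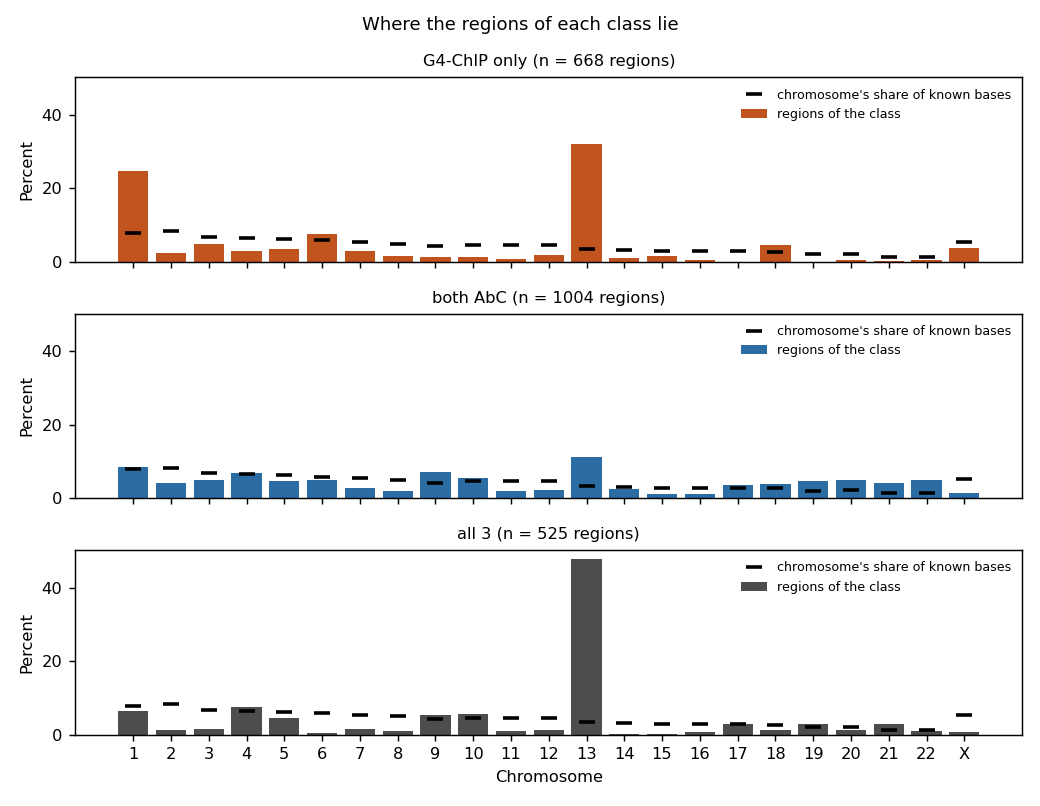
Percent of the regions of each class on each chromosome (bars), with the chromosome's percent of known hg38 bases as a dash. Chromosomes 1 and 13 stand furthest above their dashes in G4-ChIP only and chromosome 13 in all 3. Both AbC regions also leave the dashes, with 11.2% on chromosome 13, 4.98% on chromosome 22 (dash 1.35%) and 1.39% on X (dash 5.32%).

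The classes used different stretches of the same chromosomes. Counted in windows of 10 Mb, chosen here after the counts were seen, chromosome 13 between 60 and 70 Mb held 250 all 3 regions, 96 of both AbC and 40 of G4-ChIP only. From 70 to 100 Mb it held 172 G4-ChIP only regions, 8 of both AbC and 0 of all 3. That stretch also held 123 regions in CTut only and 113 in CTtr only, so both AbC lists had peaks there and seldom at the same place. On chromosome 1, the 120 to 150 Mb windows that hold the centromere had 60 both AbC, 23 all 3 and 1 G4-ChIP only region, whereas 60 to 120 Mb had 76 G4-ChIP only, 3 both AbC and 2 all 3 regions. The windows from 160 to 250 Mb had 81, 4 and 8. The median distance from a G4-ChIP only region to the nearest CTut or CTtr peak was 30.8 kb on chromosome 13 and 3594 kb on the other chromosomes. In the whole class, 84 of 668 (12.6%) lay within 10 kb of such a peak.

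Both AbC and all 3 regions gathered near centromeres on many chromosomes. Both AbC regions numbered 56 on chromosome 1 at 120 to 130 Mb, 45 on chromosome 22 at 10 to 20 Mb, 45 on chromosome 3 at 90 to 100 Mb, 43 on chromosome 6 at 50 to 60 Mb and 42 on chromosome 20 at 20 to 30 Mb. The G4-ChIP only counts in these windows were 0, 1, 3, 0 and 0. Outside chromosome 13, all 3 regions were most frequent on chromosome 4 at 50 to 60 Mb (28), chromosome 10 at 40 to 50 Mb (23) and chromosome 5 at 40 to 50 Mb (19). G4-ChIP only regions were spread over 153 windows, both AbC over 90 and all 3 over 65.

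The classes differed in how often their sequence comes again in the genome. For the central 1000 bp of each region, or the whole of a shorter one, the share of its 31-base words that occur at least once more in hg38 was taken. The median was 0.244% in G4-ChIP only (interval 0 to 0.823%), 97.4% in both AbC (96.9 to 98.2%) and 26.1% in all 3 (19.8 to 46.0%). Over 5809 tiles of 1000 bp, set every 500 kb across the genome, it was 5.15%. More than 50% of the words came again in 38 G4-ChIP only regions (5.69%, 4.06 to 7.72%), 798 both AbC regions (79.5%, 76.8 to 81.9%) and 236 all 3 regions (45.0%, 40.6 to 49.3%), against 9.92% of the tiles. The AbC lists differed in this as well: the median was 97.2% in CTut only and 8.19% in CTtr only. The all 3 class held both kinds: on chromosome 13 the median was 0.412%, and on the other chromosomes it was 99.3%. The same split appeared in both AbC, with 1.34% on chromosome 13 and 98.6% elsewhere. Reads that align to a single place were kept for these lists, and in sequence with many copies the copy that a peak is assigned to is uncertain.

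**Figure D3:**
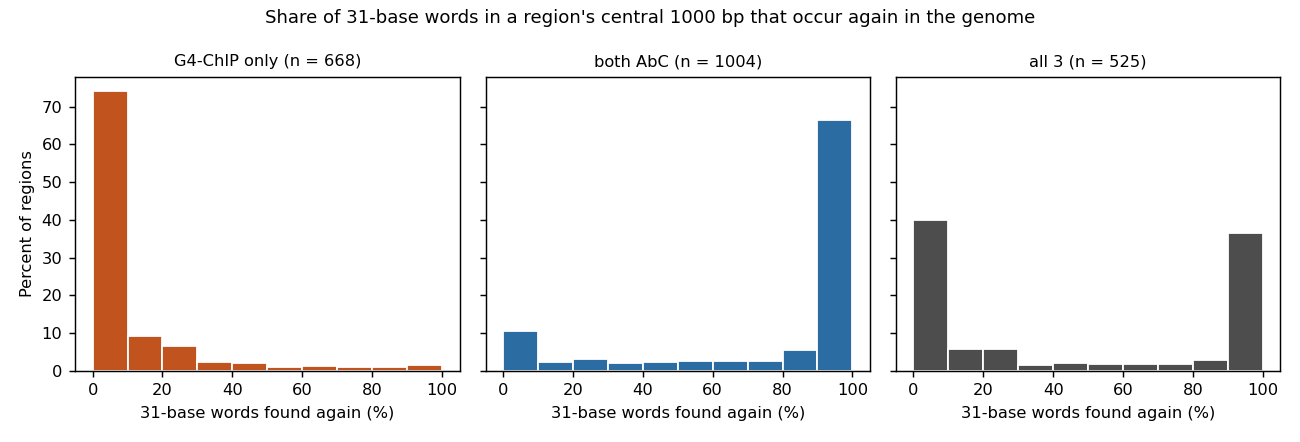
Percent of the regions of each class (vertical) by the share of 31-base words in their central 1000 bp that occur again in the genome (horizontal, bins of 10%). G4-ChIP only regions pile up at the left, both AbC regions at the right, and all 3 regions at both ends.

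Tandem copies made up a large part of these repeats. A region was called a tandem repeat where over 50% of its bases equal the base 1 alpha-satellite unit further on, or where ATTCC or GGAAT covers over 10% of it. This held for 4 G4-ChIP only regions (0.599%, 0.163 to 1.53%), 318 both AbC regions (31.7%, 28.8 to 34.7%) and 90 all 3 regions (17.1%, 14.0 to 20.6%), and for 1.38% of the 1000 bp tiles. It also held for 573 CTut only regions (34.8%) and 15 CTtr only regions (3.71%). The alpha-satellite unit accounted for 284 both AbC and 51 all 3 regions, and ATTCC for 34 and 39. With any distance from 2 to 3000 bases allowed and over 70% of the bases required to match, a choice made after the data were seen, 5, 456 and 138 regions were tandem. Of the 456, the best distance was near a multiple of that unit in 326 (71.5%), most often 340, 2719 or 680 bases, as in the higher-order repeats of alpha satellite. Of the 138, it was in 73 (52.9%), and 5 bases was the single most frequent distance, in 8 regions.

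All 3 classes were poor in runs of G. GGG and CCC triplets, counted on both strands with overlap, had a median of 14.8 per kb in G4-ChIP only (interval 14.1 to 15.7), 11.0 in both AbC (10.6 to 11.6) and 12.9 in all 3 (12.3 to 13.4), against 22.0 in the 1000 bp tiles. They were below the tile median in 521 (78.0%), 840 (83.7%) and 466 (88.8%) of the regions. The median GC content was 35.0% (34.6 to 35.4%), 38.9% (38.7 to 39.0%) and 36.8% (35.9 to 37.4%), and 39.7% in the tiles. G4-ChIP only regions were thus the lowest in GC and the highest in triplets of the 3 classes. With CTtr alone as the AbC list the triplet medians were 14.6 and 12.2 per kb. Among regions in which at most 50% of the words come again, the triplet order of G4-ChIP only and both AbC turned, with medians of 14.6 and 15.0 per kb. On chromosome 13 the GC medians were 33.3%, 34.7% and 33.9%, below the 38.3% of the tiles on that chromosome. The triplet medians there were 13.4, 14.3 and 14.1 per kb, with G4-ChIP only the lowest.

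The points of GC against triplets formed a diagonal, along which triplets climb with GC, and a column of regions with the GC of satellites and few triplets. A GC of 37 to 40% with under 10 triplets per kb, limits drawn after the plot was seen, was found in 6 G4-ChIP only regions (0.898%), 340 both AbC regions (33.9%) and 137 all 3 regions (26.1%), and in 1.29% of the tiles. A GC above 50% was found in 8 (1.20%), 58 (5.78%) and 32 (6.10%), and in 10.8% of the tiles. The point with most triplets was the region in LINC00486 on chromosome 2 (32916266 to 32917320), with 892 triplets per kb of known sequence and the highest G4-ChIP fold, 41.1, beside 8.27 in CTut and 5.52 in CTtr. Unknown bases make up 65.9% of it.

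**Figure D4:**
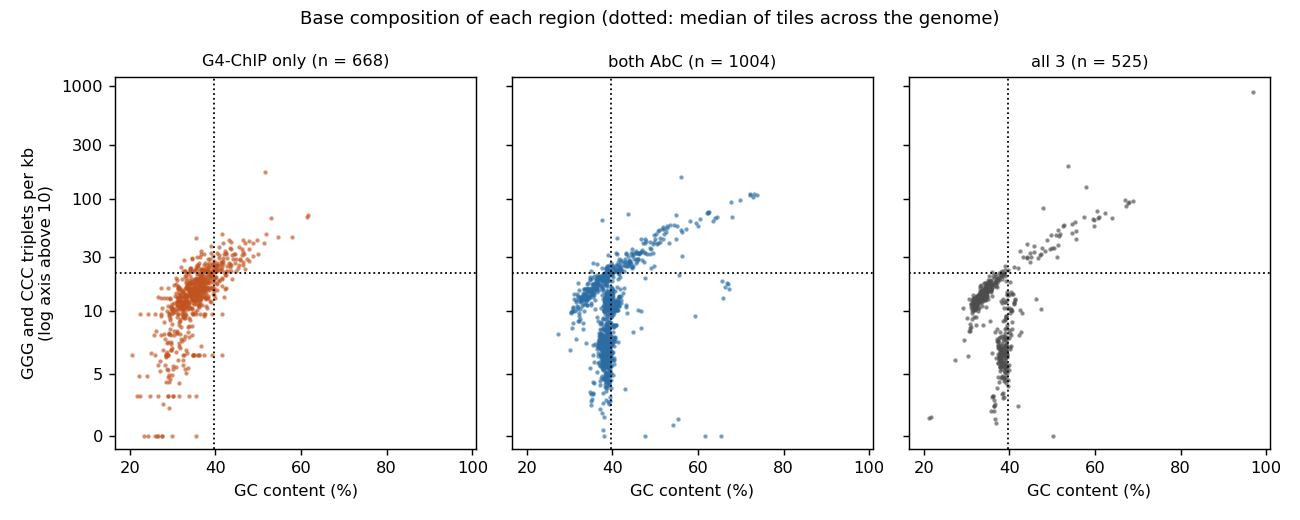
GGG and CCC triplets per kb (vertical, log axis above 10) against GC content in percent (horizontal) for each region of the 3 classes; dotted lines are the medians of the 1000 bp tiles, 22.0 per kb and 39.7%. Most points lie below the horizontal line, and the column of points near 39% with few triplets is dense in both AbC and all 3 and almost empty in G4-ChIP only.

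The canonical signature (4 or more runs with loops of 1 to 7 bases) was present in 43 G4-ChIP only regions (6.44%, 4.70 to 8.57%), 101 both AbC regions (10.1%, 8.27 to 12.1%) and 145 all 3 regions (27.6%, 23.8 to 31.7%). Longer windows hold it more often: genome tiles of the 3 median lengths held it in 11.0%, 20.5% and 48.5%, above the class of that length each time. With CTut alone as the AbC list, the signature was in 6.68% of the G4-ChIP regions without CTut and in 6.74% of the CTut regions without G4-ChIP. Within the central 1000 bp alone the shares were 3.74% (2.44 to 5.48%), 2.89% (1.94 to 4.12%) and 5.33% (3.57 to 7.62%), against 9.36% of tiles, so the order of the first 2 classes turned and their intervals overlap. Regions shorter than 1000 bp were taken whole. The lower quartile of length was 532 bp in G4-ChIP only and the shortest both AbC region 921 bp, so many G4-ChIP only windows were shorter than the tiles. The telomeric repeat covered more than 5% of 1 G4-ChIP only region, in PCMTD2 on chromosome 20 (64286997 to 64287324, 71.3%, fold 4.94), and of 1 all 3 region near the end of chromosome 1 (248945611 to 248946644, 78.3%, folds 10.8, 6.17 and 12.2 in G4-ChIP, CTut and CTtr).

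The regions of highest fold were of several kinds within a class. In G4-ChIP only, the first was a satellite on chromosome 5 (49666365 to 49667335, fold 9.88), with ATTCC over 56.6% of it, and the rest were short stretches of largely single-copy sequence. Among these were an exon of AGK, an acylglycerol kinase of mitochondria, on chromosome 7 (141636890 to 141637369, fold 6.67), and intergenic regions on chromosomes X (77144730 to 77145063, fold 6.22) and 13 (72148185 to 72148500, fold 6.12). None of the 5 held the signature, and they had 2 to 13 triplets each.

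In both AbC, the regions of ranks 2 to 4 had 100% repeated words. They lay on chromosome 6 (58927455 to 58928898, folds 10.9 and 11.6), with a best distance of 340 bases, and on chromosomes 5 (49546559 to 49547979, folds 12.5 and 10.8) and 19 (27146052 to 27147422, folds 11.4 and 10.3), both with 2042 bases. The fifth, on chromosome 21 (8806502 to 8812603, folds 12.0 and 10.1), was GC-rich at 51.6%, with 54.1 triplets per kb and the signature. The longest both AbC region was 99967 bp on chromosome 21, from 9096009 to 9195975.

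In all 3, the first 4 were ATTCC satellites next to centromeres. The region on chromosome 16 (46380698 to 46402170) had folds of 11.3 in G4-ChIP, 26.8 in CTut and 16.1 in CTtr, with 3.21 triplets per kb. The next 3, on chromosome 1 and starting at 125174023, 143210431 and 143189889, had G4-ChIP folds of 15.7, 14.0 and 14.8, and 1.42 to 2.93 triplets per kb. The fifth, on chromosome 4 (51711642 to 51712759, folds 11.4, 10.1 and 14.7), had 100% repeated words and a best distance of 341 bases, at which 58.7% of its bases matched, so it was not counted as tandem. The longest all 3 regions were of another kind. They lay on chromosome 13, from 61963257 to 62190863 (227607 bp), 61747415 to 61961119 (213705 bp) and 66963821 to 67084412 (120592 bp), with 17.0, 15.9 and 15.4 triplets per kb and G4-ChIP folds of 5.38, 5.05 and 5.45.

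The all 3 regions on and off chromosome 13 differed in every fold. The 251 on chromosome 13 had median folds of 4.72 in G4-ChIP, 3.52 in CTut and 3.62 in CTtr, and a median length of 13813 bp. The 274 elsewhere had 5.13, 8.18 and 6.48, and a median length of 4184 bp. Between G4-ChIP and CTut the rho was 0.111 on chromosome 13 and 0.400 elsewhere, and between G4-ChIP and CTtr it was 0.156 and 0.551. Between CTut and CTtr it was 0.0774 on chromosome 13 and 0.718 elsewhere. In both AbC regions the rho between CTut and CTtr was 0.282 on chromosome 13 and 0.680 elsewhere.

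Genes were hit by the classes to unequal degrees. The regions were placed by GENCODE, with a start site within 1 kb called first, then exon, then intron. A start site is that of any annotated transcript, so it can lie inside the gene body. Intergenic regions made up 281 of G4-ChIP only (42.1%, 38.3 to 45.9%), 810 of both AbC (80.7%, 78.1 to 83.1%) and 370 of all 3 (70.5%, 66.4 to 74.3%), against 36.1%, 35.2% and 30.9% of genome tiles of the 3 median lengths. Introns made up 281 (42.1%), 71 (7.07%) and 61 (11.6%), and start sites within 1 kb 44 (6.59%), 88 (8.76%) and 70 (13.3%), where the tiles had 10.7%, 14.2% and 27.1%. Outside chromosome 13, 32.7% of G4-ChIP only regions were intergenic (28.4 to 37.3%). In CTtr only, 53.2% of regions were intergenic and 30.9% in introns, and in CTut only 80.0% and 10.1%.

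The bodies of 222 protein-coding genes were touched by G4-ChIP only regions, of 46 by both AbC and of 14 by all 3. Such a gene body was met by 38.5%, 7.07% and 7.24% of the regions, against 45.8%, 46.4% and 48.8% of genome tiles of the 3 median lengths. Over all chromosomes every class was thus below the tiles. For G4-ChIP only the share was 16.0% on chromosome 13 and 49.0% elsewhere (44.3 to 53.7%), and the latter interval includes 45.8%. G4-ChIP only shared DACH1 and PCDH9 with both AbC, and PCDH9 and RYR2 with all 3. The gene holding most G4-ChIP only regions was GPC5, a heparan sulfate proteoglycan of the cell surface, with 12. KLHL1, a kelch protein of neurons, held 7, and NEGR1, a neuronal adhesion molecule, held 4. CHRM3, a muscarinic receptor, and DNAH14, an axonemal dynein chain, held 3 each. Their G4-ChIP folds ran from 4.45 to 6.02, their median GC from 32.0 to 39.3%, and none of these genes held a both AbC or all 3 region. In both AbC, TLE4, a Groucho-type corepressor, held 7 regions, NBPF1 and PCDH9 held 5 each, TTC34 held 4 and CCDC200 held 3. TTC34 stood apart with a median GC of 62.3% and 75.4 triplets per kb. In all 3, PCDH9, a protocadherin of cell adhesion, held 25 regions and CCDC200 held 2, with 1 each in ACTN2, ARHGEF18 and DUX4, the next by name. Of the 31 PCDH9 regions in the 3 classes, 12 held the signature, and CTut folds ran from 3.24 to 4.07.

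Start sites of protein-coding genes lay within 1 kb of 23 G4-ChIP only regions (3.44%), 23 both AbC regions (2.29%) and 5 all 3 regions (0.952%), each below the 6.33%, 8.37% and 16.0% of genome tiles of the 3 median lengths. Any annotated transcript counts, so a region named here need not lie at the main promoter of its gene. Genes with such a start site numbered 24, 16 and 6. The first set shared 0 genes with either of the others, and sets this small say little about overlap. The 10 G4-ChIP only start sites of highest fold lay in regions where at most 22.0% of the central words come again. Among them were YBX3, a cold-shock domain protein (fold 5.26), PRRC2C (5.15), COL4A5 (5.06), H3-3A, which encodes histone H3.3 (4.90), PLSCR4, a phospholipid scramblase (4.84), NCOA7, a nuclear receptor coactivator (4.60), KLHL1 (4.50), CAPZA1, an actin-capping subunit (4.45), and COX20, an assembly factor of cytochrome c oxidase (4.45). The signature was present in 3 of the 10, at COL4A5, KLHL1 and COX20, and COX20 had the most triplets, 217 in 5357 bp.

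Several of the both AbC start sites of highest fold belonged to gene families with near-identical copies. Of all 23, 11 lay in regions where over 50% of the central words come again, a smaller share than the 79.5% of all both AbC regions. GPI, the glycolytic glucose-6-phosphate isomerase, led with CTut and CTtr folds of 7.31 and 7.21, followed by TEX19 with 8.26 and 7.13 and 156 triplets per kb. Then came USP17L23 and USP17L24, deubiquitinases of a chromosome 4 array, with CTut folds of 8.74 and 7.22. GAGE13, GAGE2A, CT45A3 and SPANXB1, cancer-testis genes of the X chromosome, had CTut folds of 6.06, 3.80, 4.81 and 4.45, and at MUC6, a mucin, the folds were 3.81 and 4.81. At least 84.3% of the central words came again at TEX19 and each of the USP17L, GAGE, CT45A3 and SPANXB1 regions, against 2.27% at GPI and 23.8% at MUC6. In all 3 the start sites were those of DUX4 (folds 12.0, 8.19 and 5.81), MUC3A (4.70, 9.90 and 8.23), TAF11L4, TAF11L5 and TAF11L6 in a single region (4.71, 4.07 and 4.06), and PCDH9 in 2 regions. Across the D4Z4 copies, DUX4 genes and pseudogenes were met by 9 both AbC and 4 all 3 regions and by 0 G4-ChIP only regions, and 11 of these 13 held the signature. This family was picked after its values were seen. Of 14 genes with textbook G4 promoters, among them MYC, KIT, BCL2, VEGFA and TERT, 0 had a region of any class at the start site or in the gene. Of all 4325 merged regions, 95 (2.20%) lay at the start site of any protein-coding gene, so the count of 0 says nothing particular about these 14.

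The other 6 lists of the series took no part in the merging, but most of them share the AbC method with CTut and CTtr. CTnuc and KDnuc are AbC G4-ChIP of control and CGGBP1-depleted cells read on an Ion Torrent, KDut and KDtr are the CGGBP1-depleted counterparts of CTut and CTtr, and G4 DNA-IPnat and G4 DNA-IPdenat are 1H6 precipitations of purified DNA, native or denatured. Of all 4325 merged regions, 43.4% overlapped KDut, 35.7% KDtr, 40.4% KDnuc, 29.2% CTnuc, 37.8% G4 DNA-IPdenat and 4.42% G4 DNA-IPnat. G4-ChIP only regions were below this background in every list. They overlapped KDut in 35 (5.24%, 3.68 to 7.21%), KDtr in 23 (3.44%, 2.19 to 5.12%), KDnuc in 18 (2.69%, 1.60 to 4.23%), CTnuc in 6 (0.898%, 0.330 to 1.94%) and G4 DNA-IPdenat in 26 (3.89%, 2.56 to 5.65%). G4 DNA-IPnat was met by 0 of 668, which covers a share of up to 0.551%. These low shares belong to a class of mostly weak peaks. With a -log10 q of at least 4 required, 82 G4-ChIP only regions were left. They overlapped KDut in 32.9% (22.9 to 44.2%), KDtr in 31.7%, KDnuc in 17.1%, CTnuc in 12.2%, G4 DNA-IPdenat in 2.44% and G4 DNA-IPnat in 0%. Regions of a single AbC list were also below the background in every list. KDut was met by 17.8% of CTut only and 36.4% of CTtr only regions, KDtr by 9.59% and 25.7%, and CTnuc by 20.3% and 10.1%. Both AbC asks for a peak in each AbC list, and G4-ChIP only asks for none. CTnuc, KDnuc, KDut and KDtr are AbC lists too, and none of the 6 is another conventional G4-ChIP. Of the 4325 merged regions behind the background, only the 668 of G4-ChIP only lack an AbC peak. Overlap with these AbC lists is therefore not independent of the class rule, and the part of the rule in it was not tested. In the 1000 bp tiles, the share was 0.430% for KDut, 0.258% for KDtr, 0.534% for KDnuc, 0.310% for CTnuc and 1.55% for G4 DNA-IPdenat.

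Both AbC regions were above the background in 5 lists and near it in G4 DNA-IPnat. They overlapped KDut in 827 (82.4%, 79.9 to 84.7%), KDtr in 707 (70.4%, 67.5 to 73.2%), KDnuc in 645 (64.2%, 61.2 to 67.2%), CTnuc in 494 (49.2%, 46.1 to 52.3%), G4 DNA-IPdenat in 647 (64.4%, 61.4 to 67.4%) and G4 DNA-IPnat in 45 (4.48%, 3.29 to 5.95%). All 3 regions overlapped KDut in 519 (98.9%), KDtr in 509 (97.0%), KDnuc in 434 (82.7%), CTnuc in 365 (69.5%), G4 DNA-IPdenat in 303 (57.7%, 53.4 to 62.0%) and G4 DNA-IPnat in 143 (27.2%, 23.5 to 31.3%). Overlap is easier for long regions. With at least 50% of the region covered by the list, the shares for KDut were 3.44%, 62.2% and 86.7%, and those for CTnuc 0.150%, 21.1% and 20.8%, with overlapping intervals for both AbC (18.6 to 23.8%) and all 3 (17.4 to 24.5%).

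**Figure D5:**
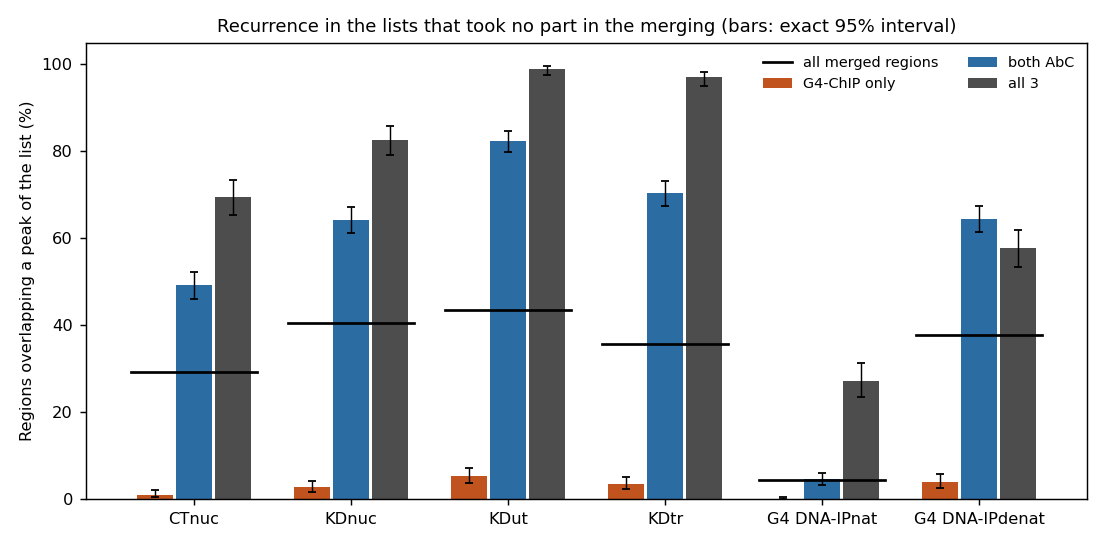
Percent of the regions of each class that share at least 1 bp with a peak of each list on the horizontal axis (bars, with exact 95% intervals), and the percent over all 4325 merged regions (lines). G4-ChIP only bars lie under 6% in each list, and only all 3 regions rise clearly above the line for G4 DNA-IPnat, 27.2% against 4.42%.

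The overlap with purified DNA followed the split by chromosome. Of the 274 all 3 regions outside chromosome 13, 142 met G4 DNA-IPnat (51.8%, 45.7 to 57.9%) and 235 met G4 DNA-IPdenat (85.8%, 81.1 to 89.7%). Of the 251 on chromosome 13, 1 met G4 DNA-IPnat (0.398%, 0.0101 to 2.20%) and 68 met G4 DNA-IPdenat (27.1%, 21.7 to 33.0%), while 249 met KDut. G4-ChIP only regions met KDut in 31 of 213 on chromosome 13 (14.6%) and in 4 of 455 elsewhere (0.879%). Among regions with at most 50% repeated words, the shares for KDut were 5.24% in G4-ChIP only, 93.7% in both AbC and 99.3% in all 3.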

How the data were processed

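Each of the 9 peak lists stands for 1 library pooled before sequencing. G4-ChIP, CTut and CTtr were read on a MinION, aligned by the authors with minimap2 to hg38 without chromosome Y, mitochondrial and unannotated sequence, and filtered for uniquely aligned reads. Broad peaks were called with MACS2 against each input. CTut and CTtr were called with a wide bandwidth, a broad cutoff and no local lambda, and G4-ChIP at the default bandwidth, its other options not being stated. Tool versions are not given in the sources used here. The fold of each peak over its input is that of MACS2, as deposited by the authors. MACS2 also wrote the deposited -log10 p and -log10 q of every peak, and the deposited score, a whole number taken from -log10 q. Reads, tracks and inputs were not analysed here.

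Peaks of the 3 lists were merged at 1 bp of overlap with Python 3.11.15 (numpy 2.4.6, pandas 2.3.3, scipy 1.17.1, numba 0.67.0), and plots were drawn with matplotlib 3.10.9. A region's fold in a list is the highest of that list's peaks in it. Sequence was read from hg38, and genes from GENCODE 44, with the order start site of any transcript within 1 kb, exon, intron, intergenic. Tiles were set every 500 kb as a systematic background. Repeated 31-base words were counted on both strands. Shares have exact Clopper-Pearson intervals and medians have binomial order-statistic intervals, at the 95% level, and no test was made since each list has 1 library. Named in each class were the 5 regions of highest fold and the 3 longest, the 5 protein-coding genes with most regions, and up to 10 with a start site within 1 kb by fold. Names outside this rule were chosen after their values were seen. The classes, lists and limits were chosen with earlier results of these data known. The merging, class, overlap and sequence functions were tested on simulated data. Alternatives covered the q threshold, merging distance, cover, chromosomes, repeats, each AbC list alone, sequence window, motif, annotation and overlap. A few items that the rule names are not reported here.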

Additional observations from a re-analysis of the deposited data

How the results depend on the processing

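Each difference here is G4-ChIP only minus both AbC, in percentage points unless said otherwise, and no cause was tested. Peaks with a -log10 q of at least 4, whose classes were built anew, gave 82 G4-ChIP only, 657 both AbC and 132 all 3 regions. The differences became 52.4 for chromosome 13, -35.2 for tandem repeats, -8.37 for the signature, -29.6 for intergenic regions and -47.1 for the mean overlap with the other 6 lists, -1691 bp for median length and -5.35 for median GC, and the median G4-ChIP fold in all 3 regions was 5.99. CTut alone as the AbC list gave 2848 regions without G4-ChIP, a length difference of -478 bp, an overlap difference of -26.6 and a fold of 4.81. CTtr alone gave 1675 regions, 9.39 for chromosome 13, -79.0 bp (interval -235 to 111 bp, which includes 0), 2.39 triplets per kb, -21.6 for tandem repeats, -29.2 for intergenic regions, -39.8 for overlap and a fold of 4.80. Where a list had to cover 50% of a region, 97 all 3 regions were left, with 13.6 for chromosome 13, -25.2 for tandem repeats, -10.4 for the signature, -31.8 for intergenic regions and a fold of 5.24. Without chromosome 13, 274 all 3 regions were left, with -3.33 for GC, 5.14 triplets per kb, -49.3 for intergenic regions and a fold of 5.13.

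Without tandem repeats the differences were -1820 bp, -7.96 for the signature and -30.6 for intergenic regions, with a fold of 4.83. An overlap of at least 50% of the region gave -32.6, triplets counted without overlap 2.26 per kb, protein-coding genes only -31.6 for intergenic regions, and a match of over 70% at the alpha-satellite unit -3.59 for tandem repeats. The signature in the central 1000 bp turned to 0.854. Further choices were made after seeing the data. With at most 50% repeated words, 206 both AbC and 289 all 3 regions were left. The differences for chromosome 13 (-14.4) and triplets (-0.399 per kb) turned, and the others were -3720 bp, -1.69 for GC, -17.8 for tandem repeats, -9.18 for the signature and -25.7 for intergenic regions, with a fold of 4.73. Without the G4-ChIP peaks of lowest fold there were 315 G4-ChIP only regions, with -1924 bp and a fold of 4.97. Without chromosomes 1 and 13 there were 291 G4-ChIP only and 240 all 3 regions, with -35.3 for tandem repeats, -45.3 for intergenic regions and a fold of 5.13. Tandem repeats at any distance gave -44.7. Of 198 overlap shares recomputed for single lists, 96 stayed within their counting interval and 102 moved beyond it. No paired analysis was possible because the result comes from no test. With 1 library a list no replicate could be left out, and the unknown depth limits every count of regions.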
